A study of Mus musculus with 4 samples.

Results

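Oligodendrocyte lineage and central myelin genes were examined in whole brain of wild-type mice and of mice lacking ADAR2, the adenosine deaminase encoded by Adarb1. The members were 30 gene symbols chosen for their role in these cells, and a transcript cluster counted as a member when its gene symbol equalled a listed symbol. A transcript cluster groups the probes of a single transcribed locus on the array. By this rule 29 of the 30 symbols were found, on 30 of the 33793 clusters of the array. Bcas1 had 2 clusters, and Myrf was not found under that name.

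RNA came from adult female mice of strain 129SV, dissected at 5.5 months of age per the study's methods, and each of 4 arrays held whole-brain RNA of 1 label, wild-type replicates 1 and 2 and Adar2-/- replicates 1 and 2. Wild-type (AdarB1+/+) and Adar2-/- (AdarB1-/-) mice were siblings from heterozygous crosses and all carried the pre-edited Gria2 allele (Gria2 R/R), which rescues Adar2-/- mice from early death. The knockout is not restricted to a cell type. Values are deposited log2 signals, so a difference of 1 is a doubling. The study's methods describe the array RNA as that of 2 wild-type and 2 Adar2-/- mice, while the array labels give replicate numbers only and tie no array to an animal. If arrays shared an animal, p-values would measure technical spread alone. Whole-brain RNA cannot tell fewer oligodendrocytes apart from less RNA per oligodendrocyte.

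Oligodendrocytes are the glia that wrap axons of the central nervous system in myelin, a stack of lipid-rich membrane that speeds conduction. They arise from precursor cells that carry the receptor Pdgfra and the proteoglycan encoded by Cspg4, and they pass through a newly formed stage before they make myelin. The transcription factor Olig2 specifies the lineage, and Sox10 and Myrf activate the myelin genes. The sheath proteins, the enzymes of myelin lipid synthesis and the axon-facing adhesion proteins are then made in large amounts.

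The genotype labels were checked first on the targeted gene. Adarb1 had a log2 signal of 10.50 and 10.45 in wild-type and 9.16 and 8.96 in Adar2-/- replicates 1 and 2, a difference of -1.42 (SE 0.12, limma p 2.57e-05, adjusted p 0.409). Array medians over all clusters lay between 6.03 and 6.09. All 30 member clusters were above 4.40 on every array, the highest signal of the Y-linked genes that female mice lack (lowest 3.49). This floor rests on 4 genes with probes of their own and does not by itself show that a member was expressed. All 30 were of the type without probes that can cross-hybridize, with 17 to 41 probes each. The file names no genome build, and each member cluster overlapped the span of its gene in RefSeq on GRCm38.p6. Signals of different clusters come from different probes and were not ranked against each other.

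The oligodendrocyte and myelin genes differed little between the genotypes. The differences of the 30 clusters, Adar2-/- minus wild-type on the log2 scale, ran from -0.35 for Mog to 0.25 for a cluster listed as Bcas1, with a median of -0.0225, against 0.005 over all clusters and -0.025 over the clusters above the median signal. Over the members 20 clusters were lower and 10 higher in Adar2-/- brain. This split moved with the scaling, to 23 lower and 6 higher after centring each array on its median and to 15 and 15 after quantile normalization. It also moved with the arrays used, to 23 lower and 5 higher without wild-type replicate 1 and to 11 lower and 18 higher without wild-type replicate 2, where the median turned to 0.0475. Without Adar2-/- replicate 1 it was 16 lower and 14 higher, and without Adar2-/- replicate 2 it was 21 lower and 9 higher. None passed an adjusted p of 0.05 in limma, where the background over all clusters was also 0%, and the lowest adjusted p of a member was 0.834.

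At an unadjusted limma p below 0.05, 2 of the 30 clusters were called, Mog and Olig2, both lower in Adar2-/- brain. That is 6.67% of the members, near the 5.95% called over all 33793 clusters and the 4.1% over those above the median signal, and 2.31% of all clusters were called in the lower direction. The wild-type and Adar2-/- arrays did not overlap in 7 member clusters, or 23.3%, below the 34.1% over all clusters. Of these 7, Mog, Olig2, Gpr17 and Cldn11 were lower and Mobp, Mal and the shorter Bcas1 cluster were higher in Adar2-/- brain.

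**Figure D1:**
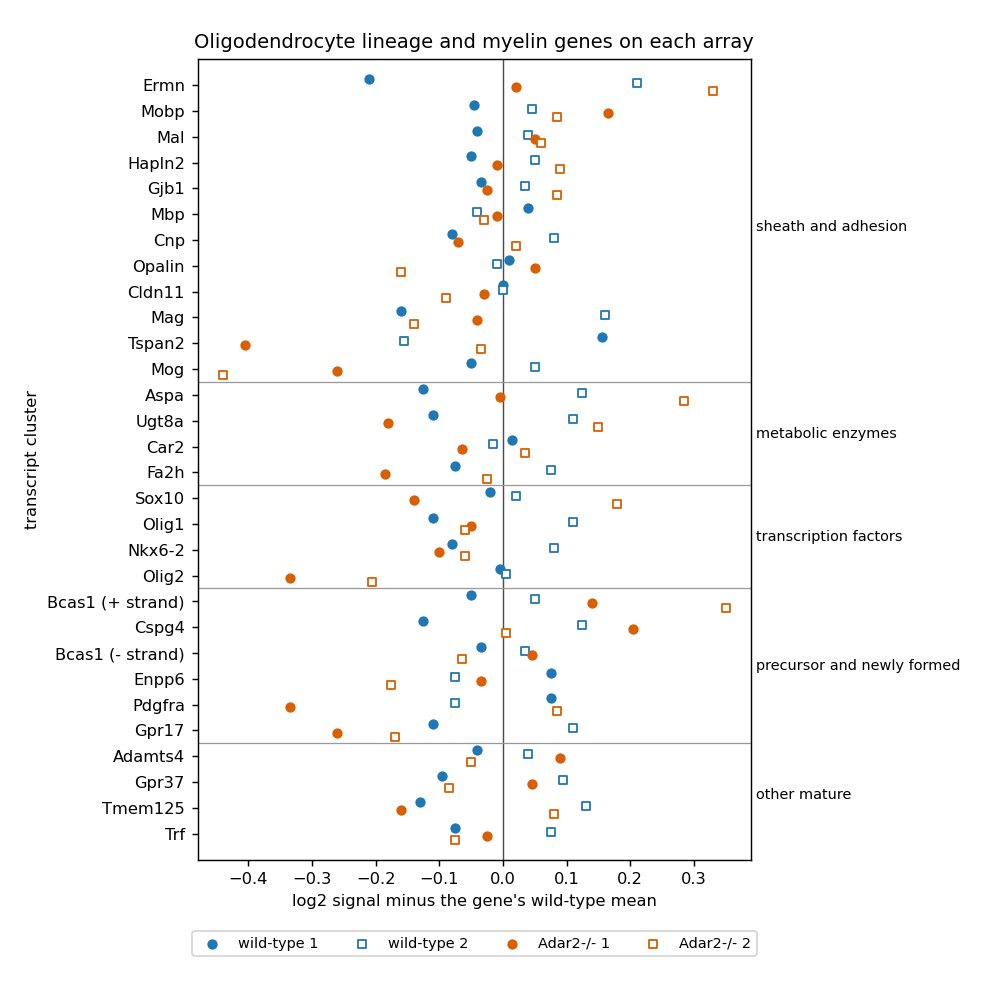
Each of the 30 member clusters is a line, grouped by role, and the horizontal axis gives the log2 signal of an array minus that cluster's wild-type mean. Blue symbols are wild-type arrays and orange symbols Adar2-/- arrays, filled circles replicate 1 and open squares replicate 2, drawn at slightly different heights. Orange symbols lie left of both blue symbols for Mog, Olig2, Gpr17 and Cldn11, and for most other genes the colours are mixed.

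The precision of 2 arrays against 2 sets how large a change could have been missed. The SE of the member differences ranged from 0.10 to 0.18, with a median of 0.12. In 27 of the 30 clusters the 95% interval of the difference lay within a 1.5-fold change either way (0.585 on the log2 scale). That is 90%, against 82.2% of all clusters and 88.6% of the clusters above the median signal. The exceptions were Mog and Tspan2, whose intervals reached further down, and Ermn, whose interval reached further up.

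**Figure D2:**
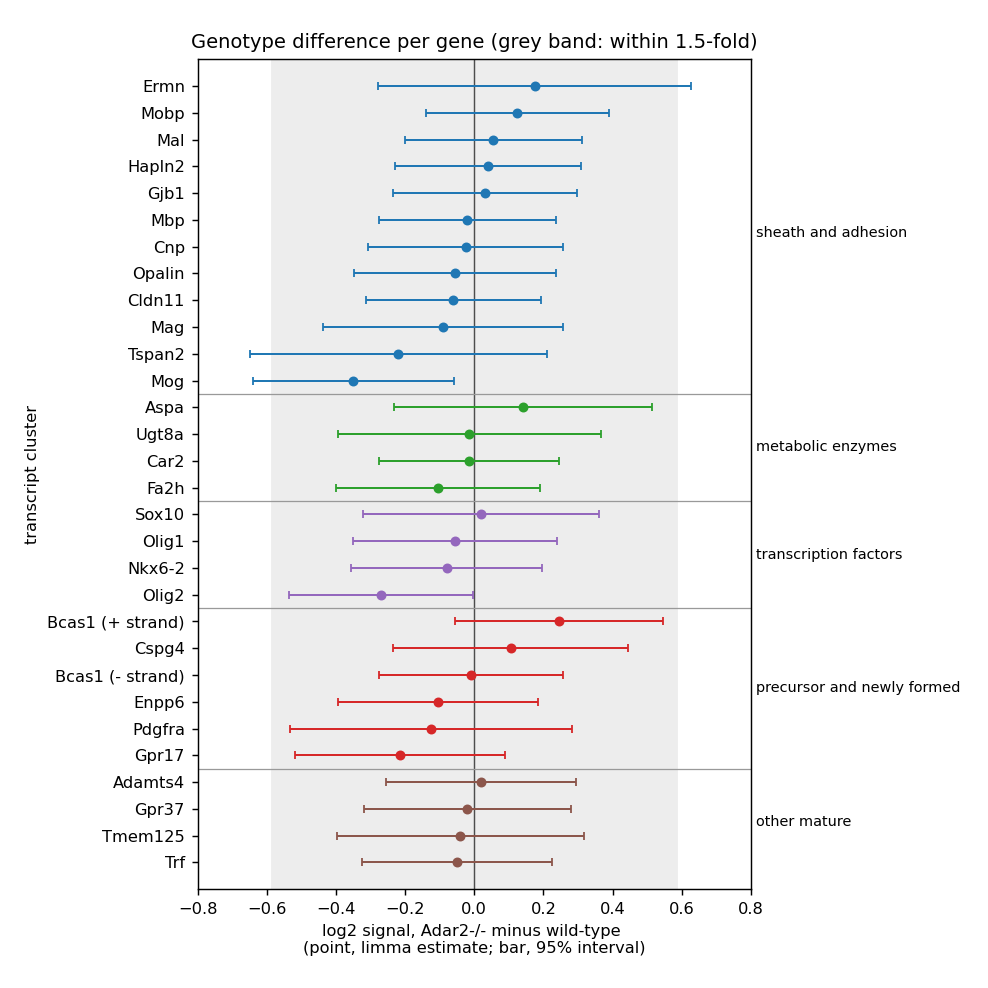
Points are the limma estimates of Adar2-/- minus wild-type log2 signal for the 30 member clusters, and bars are 95% intervals. The grey band marks changes smaller than 1.5-fold, and the bars of Mog, Tspan2 and Ermn leave it.

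Of the 12 sheath and adhesion genes, 7 were lower and 5 higher in Adar2-/- brain, with a median difference of -0.0225, and 1 was called. Mog encodes a surface glycoprotein on the outermost myelin lamella. Its cluster (chromosome 17, 37010740 to 37023398, minus strand) had log2 signals of 10.11 and 10.21 in wild-type and 9.90 and 9.72 in Adar2-/- replicates 1 and 2. Both Adar2-/- arrays lay below both wild-type arrays. The difference was -0.35 (SE 0.12), a 1.27-fold lower signal, with a limma p of 0.0258, an adjusted p of 0.834 and a 95% interval from -0.64 to -0.060. An exact permutation test of 2 against 2 arrays cannot give a two-sided p below 0.333. Leaving out wild-type replicate 1, wild-type replicate 2 or Adar2-/- replicate 2 raised the limma p of Mog to 0.0673, 0.122 and 0.105, and the replicate number as a block gave 0.0556.

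Genes of other sheath proteins lay closer to 0 than Mog. Mbp, myelin basic protein, which holds the inner membrane faces together, had 10.62 and 10.54 in wild-type and 10.57 and 10.55 in Adar2-/- brain, a difference of -0.02 with a 95% interval from -0.28 to 0.24. Mobp, another basic protein of compact myelin, had 10.34 and 10.43 in wild-type and 10.55 and 10.47 in Adar2-/- brain. Its arrays were thus separated in the opposite direction from those of Mog (difference 0.13, SE 0.11, limma p 0.288). Mal, a proteolipid that sorts membrane to the sheath, differed by 0.055 (SE 0.10). Cldn11, the claudin of the tight junctions between myelin lamellae, read 11.08 on both wild-type arrays and 11.05 and 10.99 on the Adar2-/- arrays, a difference of -0.06 (SE 0.10) with a limma p of 0.58.

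Adhesion and cytoplasmic proteins of the sheath varied as much within a genotype as between genotypes. Mag, the glycoprotein of the periaxonal membrane, had 10.51 and 10.83 in wild-type and 10.63 and 10.53 in Adar2-/- brain, and the wild-type pair enclosed the Adar2-/- pair. Ermn, a cytoskeletal protein of mature oligodendrocytes, had 8.41 and 8.83 in wild-type and 8.64 and 8.95 in Adar2-/- brain, the widest wild-type gap of the members. Its difference of 0.18 (SE 0.18) had a 95% interval from -0.28 to 0.63. Tspan2, a tetraspanin, had 8.89 and 8.58 in wild-type and 8.33 and 8.70 in Adar2-/- brain, a difference of -0.22 (SE 0.17, limma p 0.255) with overlapping groups. Cnp, the nucleotide phosphodiesterase of non-compact myelin, differed by -0.025, Gjb1, the gap junction protein connexin 32, by 0.03, Hapln2, a link protein of the nodal matrix, by 0.04 and Opalin by -0.055. The SE of these 4 differences ran from 0.11 to 0.12.

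No metabolic enzyme among the members was called. Ugt8a, which makes the galactolipid cerebroside of myelin, had 10.05 and 10.27 in wild-type and 9.98 and 10.31 in Adar2-/- brain, a difference of -0.015 (SE 0.15) with the Adar2-/- pair enclosing the wild-type pair. Fa2h, which hydroxylates the fatty acids of those lipids, differed by -0.10 (SE 0.12). Aspa, which releases acetate from N-acetylaspartate, had 8.53 and 8.78 in wild-type and 8.65 and 8.94 in Adar2-/- brain, a difference of 0.14 (SE 0.15, limma p 0.391). Car2, carbonic anhydrase 2, had 11.17 and 11.14 in wild-type and 11.09 and 11.19 in Adar2-/- brain and differed by -0.015 (SE 0.11).

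Of the transcription factors, 1 of 4 clusters was called. Olig2, the basic helix-loop-helix factor that specifies the lineage and is also present in precursors, lies on chromosome 16 (91225550 to 91228677, plus strand). It had log2 signals of 8.73 and 8.74 in wild-type and 8.40 and 8.53 in Adar2-/- replicates 1 and 2. The wild-type arrays were nearly equal, and both Adar2-/- arrays lay below them. The difference was -0.27 (SE 0.11), a 1.21-fold lower signal, with a limma p of 0.0477, an adjusted p of 0.834 and a 95% interval from -0.54 to -0.0039. Without wild-type replicate 1, wild-type replicate 2 or Adar2-/- replicate 1 the limma p was 0.112, 0.121 and 0.133, and it was 0.0831 after quantile normalization and 0.0594 with the replicate block.

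Olig1, the paralogue whose cluster starts 41091 bases beyond the end of the Olig2 cluster on the same strand, had 9.87 and 10.09 in wild-type and 9.93 and 9.92 in Adar2-/- brain, a difference of -0.055 (SE 0.12) with overlapping groups. Sox10, an HMG-box factor that activates myelin genes, had 8.34 and 8.38 in wild-type and 8.22 and 8.54 in Adar2-/- brain and differed by 0.02 (SE 0.14). Nkx6-2, a homeobox factor of differentiating oligodendrocytes, differed by -0.08 (SE 0.11). The cluster of the RefSeq transcript of Myrf was found through its accession under an older symbol. It had 9.29 and 9.44 in wild-type and 9.43 and 9.42 in Adar2-/- brain, a difference of 0.06 (SE 0.11, limma p 0.606). Counting it as a member left 2 clusters called.

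Among genes of precursor and newly formed oligodendrocytes, 4 of 6 clusters were lower and 2 higher in Adar2-/- brain, and none was called. Pdgfra, the PDGF receptor that sustains precursors, had 8.41 and 8.26 in wild-type and 8.0 and 8.42 in Adar2-/- brain. Only Adar2-/- replicate 1 was low, and the difference was -0.13 (SE 0.17). Cspg4, the NG2 proteoglycan of precursors, had 6.99 and 7.24 in wild-type and 7.32 and 7.12 in Adar2-/- brain, a difference of 0.10 (SE 0.14). Gpr17, a receptor of the transition from precursor to myelinating cell, had 8.09 and 8.31 in wild-type and 7.94 and 8.03 in Adar2-/- brain. Its groups did not overlap, and the difference was -0.22 (SE 0.12) with a limma p of 0.132. Enpp6, a choline phosphodiesterase of newly formed oligodendrocytes, differed by -0.10 (SE 0.12).

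Bcas1, a marker of early myelinating cells, had both of its clusters on chromosome 2, and the readings disagreed. The long cluster (170346991 to 170427845, minus strand, 34 probes) had 6.99 and 7.06 in wild-type and 7.07 and 6.96 in Adar2-/- brain, a difference of -0.01 (SE 0.11). The short cluster (170405181 to 170407175, 23 probes) lies wholly inside it but on the plus strand. It had 5.52 and 5.62 in wild-type and 5.71 and 5.92 in Adar2-/- brain, a difference of 0.25 (SE 0.12, limma p 0.0926). As it is on the opposite strand, the short cluster is not taken here as a reading of Bcas1 mRNA.

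None of the other genes of mature oligodendrocytes was called. Trf, the iron carrier transferrin, had 11.42 and 11.57 in wild-type and 11.47 and 11.42 in Adar2-/- brain, a difference of -0.05 (SE 0.11). Gpr37, a receptor of maturing oligodendrocytes, and Tmem125, a membrane protein, differed by -0.02 (SE 0.12) and -0.04 (SE 0.14), and Adamts4, a matrix protease, by 0.02 (SE 0.11).

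Within a genotype the members moved between replicates. In wild-type brain 23 of the 30 clusters were higher in replicate 2 than in replicate 1 and 6 were lower, with a median difference of 0.10, whereas 49.3% of all clusters were higher in replicate 2 and their median difference was 0. In Adar2-/- brain 17 were higher and 13 lower in replicate 2, with a median of 0.065, against 46.6% higher and a median of -0.01 over all clusters. Across the 4 arrays, the lowest reading of a member fell in wild-type replicates 1 and 2 in 12 and 1 clusters and in Adar2-/- replicates 1 and 2 in 10 and 6, not counting ties. The median gap between the arrays of a genotype was 0.13 for the members, and the median size of their genotype difference was 0.0575.

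**Figure D3:**
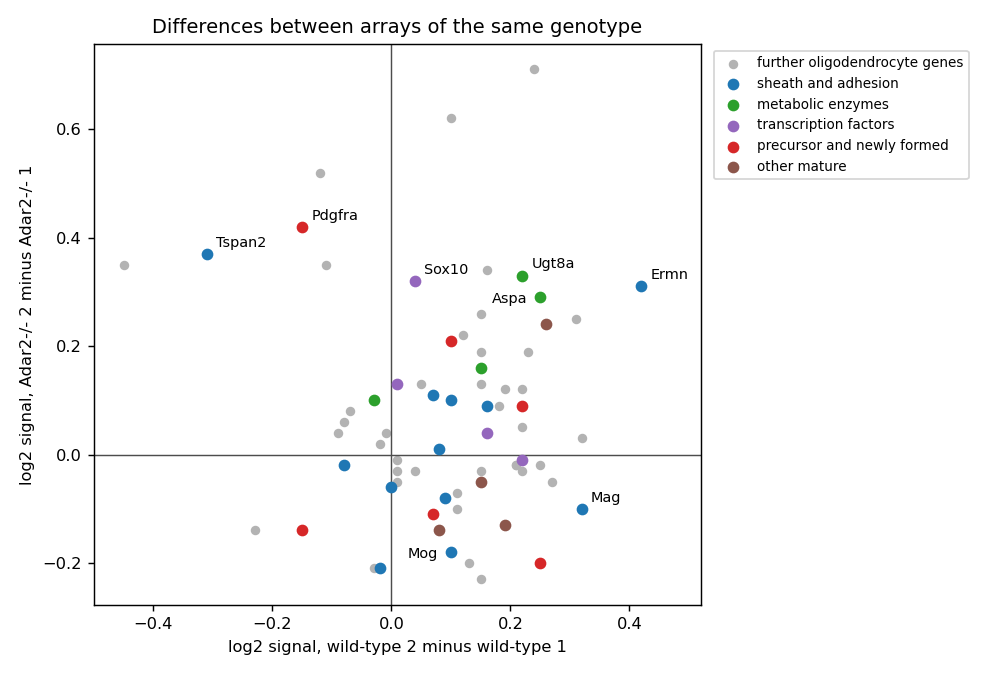
For each member cluster (coloured by role) and each further oligodendrocyte gene (grey), the horizontal axis gives wild-type replicate 2 minus replicate 1 and the vertical axis Adar2-/- replicate 2 minus replicate 1, in log2 signal. Most member points lie right of the vertical line, with 23 of 30 higher in wild-type replicate 2, and Ermn, Ugt8a and Aspa are higher in replicate 2 of both genotypes.

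Further genes of the same cells were read from lists of their own. Of 36 other oligodendrocyte genes, 35 were found, on 39 clusters, of which 19 were higher and 20 lower, with a median of -0.01. Cryab, Ndrg1, Tmem88b and Nkx2-2 each had a second cluster on the opposite strand, as Bcas1 did, and without these 16 were higher and 19 lower, with a median of -0.015. Without the short Bcas1 cluster the members were 9 higher and 20 lower, with a median of -0.025. Only Serpinb1a was called (6.12 and 6.25 in wild-type, 5.37 and 5.17 in Adar2-/- brain), a protease inhibitor gene that the study had already listed from these arrays. Of 15 clusters of 14 further precursor genes, 12 were lower and 3 higher, with a median of -0.11, which is 80% lower beside 57.3% over all clusters above the median signal. Bmp4, a growth factor gene, was the only one called, with 6.94 and 6.93 in wild-type and 6.55 and 6.70 in Adar2-/- brain, a difference of -0.31 (SE 0.11, limma p 0.0317, adjusted p 0.834). Its unadjusted p was above 0.05 when either wild-type array or Adar2-/- replicate 1 was left out.

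Sterol synthesis, which supplies the cholesterol of myelin as well as that of other cells, held no called cluster. Of its 19 clusters 14 were lower and 5 higher, with a median of -0.085. Fdft1, squalene synthase, was the lowest with 11.22 and 10.95 in wild-type and 10.73 and 10.91 in Adar2-/- brain (difference -0.27, limma p 0.106). Of the 13 clusters for the node of Ranvier and the axon-glia junction, 12 were lower and none was called (median -0.075). Cntnap1, the axonal partner of the myelin loops, had 11.06 and 11.03 in wild-type and 10.96 and 10.91 in Adar2-/- brain. These shares lower stand beside 57.3% over all clusters above the median signal and 47.7% over all clusters. The splits of the lists other than the members were not recomputed under another scaling or with an array left out.

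Markers of other cells were read on the same arrays. Of 15 neuronal clusters 9 were lower, none was called, and the median was -0.01. Astrocyte genes were lower in 6 of 10, with a median of -0.12, and the gap junction gene Gja1 was called at -0.27 (limma p 0.0473), though not with any array left out. Microglial genes were lower in 9 of 10, with a median of -0.093 and none called. Endothelial genes were split 5 and 5, with a median of -0.0075, and the transporter gene Slco1a4 was called at 0.40 (limma p 0.018), a call that held only without wild-type replicate 1 among the fits that left out an array.

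Peripheral myelin genes matter here because Schwann cells of nerve roots also make Mbp, Mag, Mal and Gjb1. Of 9 such clusters 5 were higher (median 0.12), Pmp2 was called at 0.42 (limma p 0.0361) and Egr2, which neurons also express, at -0.41 (limma p 0.0072). Pmp2 read 3.72 and 3.87 in wild-type and 4.40 and 4.03 in Adar2-/- brain, within the range of the Y-linked genes, and was called only without Adar2-/- replicate 2 among the fits that left out an array. The mean log2 signal of the peripheral list ran from 6.67 to 6.72 in wild-type and 6.69 to 6.84 in Adar2-/- brain. Without Adar2-/- replicate 2 the median difference of the 30 members was -0.0325. The part of peripheral nerve in the member signals was not tested.

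**Figure D4:**
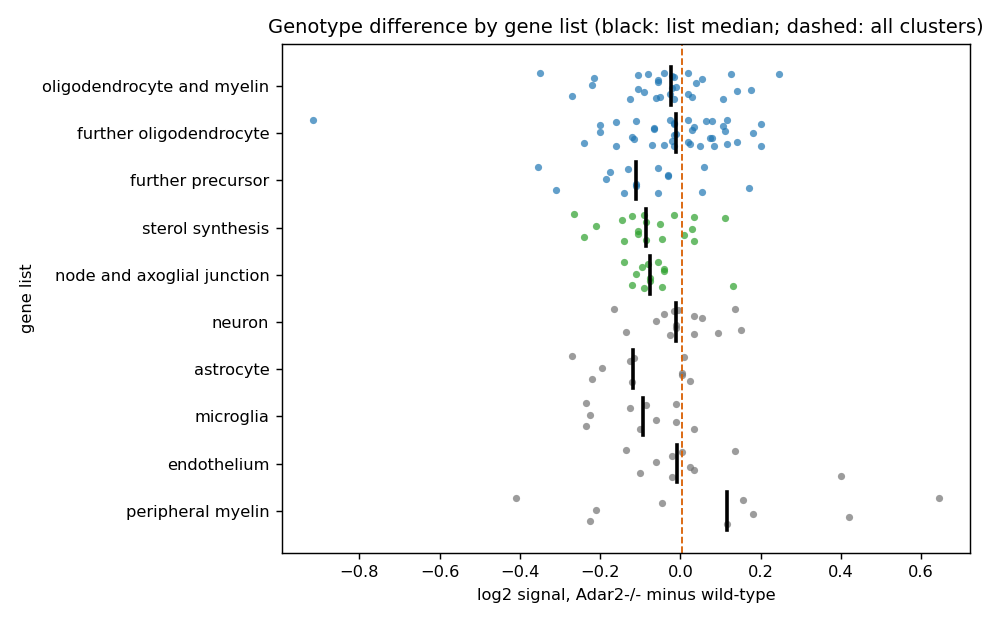
Each point is a cluster and the horizontal axis is Adar2-/- minus wild-type log2 signal, with 1 line per gene list. Black bars are list medians and the dashed line is the median of all clusters, 0.005. The oligodendrocyte and myelin members centre on -0.0225 between -0.35 and 0.25, and the point at the far left is Serpinb1a.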

How the data were processed

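A core facility hybridised whole-brain RNA to 4 Affymetrix mouse gene arrays after amplification with a whole-transcript kit. The authors deposited normalized log2 signals per transcript cluster, to 2 decimals. The submitters' processing notes name Affymetrix Expression Console and RMA, with no version, and genome build and detection calls are not given in the sources used here. RMA places arrays on a common scale, so a shift shared by most genes would not be seen. The authors' columns of averages, ratios, fold changes and p-values were not used.

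The limma package (version 3.58.1, run under R 4.3.3) fitted genotype as the sole term to all 33793 clusters, unfiltered, with eBayes and two-sided tests, with Benjamini-Hochberg adjustment over all clusters. The prior SD was 0.125 with 3.79 degrees of freedom. Intervals are 95% limma intervals. The calculation was tested on simulated data. The precision is limited by the number of arrays. Plots were drawn with matplotlib 3.10.9.

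Members and gene lists (myelin roles, further oligodendrocyte and precursor genes, sterol synthesis, node and junction, and markers of neurons, astrocytes, microglia, endothelium, peripheral myelin, olfactory bulb, choroid plexus, pituitary, blood and Y-linked genes) were chosen with earlier results of these data known. Array values are given for members with an unadjusted p below 0.05, the 5 highest and 5 lowest differences and at least 1 member per role. Further members, and Fdft1 and Cntnap1, were given after their values were seen. From each other list the called genes are given, at most 5 by p, except that some items are not reported here. The alternatives were median centring, quantile normalization, clusters above the median signal, an intensity trend, a pooled-variance test without shrinkage, the replicate number as a block, each array left out, and clusters that can cross-hybridize left out. Adding Myrf by accession and leaving out clusters on the strand opposite to the one that best matched the RefSeq span of the gene were chosen after seeing the data.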

Additional observations from a re-analysis of the deposited data

How the results depend on the processing

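The number of members with an adjusted p below 0.05 was 0 in all 13 alternatives, and so was the number of sterol synthesis genes with an unadjusted p below 0.05. The 2 members called at an unadjusted p became 1 after quantile normalization (Mog), 0 in the pooled-variance test without shrinkage, and 0 to 1 with single arrays left out, Mog without Adar2-/- replicate 1 and Olig2 without Adar2-/- replicate 2. With the replicate number as a block the count was 0. For same-numbered arrays, Pearson's r of their deviations from the genotype means was 0.052 across all clusters and -0.056 across the members, and 14 members (46.7%, against 23.6% of all clusters) were higher in replicate 2 of both genotypes. The labels do not say that a number marks a shared litter, batch or day, and whether the arrays were paired was not settled by these values. The further oligodendrocyte genes called changed from 1 to 0 among clusters above the median signal, to 2 with an intensity trend, to 3 in the pooled-variance test and to between 1 and 3 with single arrays left out. Serpinb1a, the gene called over all clusters, was itself not among those above the median signal. What caused the other shifts was not tested.

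The median difference of the members ranged from -0.0625 after median centring to 0.0475 without wild-type replicate 2, and was 0.0047 after quantile normalization, so its sign depended on the scaling and on the arrays used. Adarb1 ranged from -1.52 to -1.32. Of 271 recomputed values of single named genes, 215 kept their direction and side of the threshold and 51 lost an unadjusted p below 0.05. Signs turned in 5, all for genes not called and with an array left out: Ermn (-0.035 to 0.39, turned without wild-type replicate 1), Cspg4 (-0.02 to 0.23, likewise), Trf (-0.13 to 0.025, turned without wild-type replicate 2), Pdgfra (-0.34 to 0.085, turned without Adar2-/- replicate 1) and Aspa (-0.005 to 0.29, turned without Adar2-/- replicate 2). In fits without an array its lone partner was assumed to vary like the other genotype. Among clusters above the median signal the short Bcas1 cluster, Serpinb1a, Pmp2 and Pomc were among those not retained.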

Other observations

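Markers of tissue at the edges of a brain dissection also differed between arrays. Of 10 olfactory bulb clusters 8 were lower (median -0.13), and all 10 were lower in Adar2-/- replicate 2 than in replicate 1. Cdhr1, a cadherin of the bulb, read 7.80 and 7.87 in wild-type and 7.44 and 6.66 in Adar2-/- brain (limma p 0.0214). Its difference was -0.40 without Adar2-/- replicate 2. The limma p of Cdhr1 was 0.0517 with the replicate block, and the pooled-variance test without shrinkage gave a p of 0.183. Choroid plexus genes had a median of 0.01 with none called, and all 10 were higher in wild-type replicate 2 than in replicate 1. Of 14 pituitary clusters 12 were higher, and Prl, Gh and Pomc were called at 4.12, 3.17 and 0.51. Of 9 blood clusters 7 were lower, with Alas2 called at -0.74. Alas2 was -0.33 without wild-type replicate 1, and its p was above 0.05 without any array except wild-type replicate 2. Pomc was called only without Adar2-/- replicate 2 among the fits that left out an array. The 4 Y-linked genes had a median of -0.015 and none was called. The part of these tissues in the signals of the oligodendrocyte genes was not tested.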
